A study of Arabidopsis thaliana with 6 samples.

Results

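Starch is the main carbohydrate store of the leaf, and 10 genes of its synthesis and breakdown were compared between wild type (WT) and *fer*, a mutant that lacks FERONIA (FER), a receptor kinase. The genes were taken by their identifiers from a fixed list, 5 for synthesis (PGM1, ADG1, APL1, APL3 and GBSS1) and 5 for breakdown (SEX1, BAM3, BAM5, DPE1 and DPE2), and all 10 were found among the 20754 genes of the table. Both genotypes were *Arabidopsis thaliana*. WT was the accession Columbia-0, and *fer* was *fer-4*, a single T-DNA insertion line that has lost FER function. Each had 3 biological replicates of rosette leaves, which the labels give as 4 weeks old, after 10 days on MS plates in constant light and 3 weeks on soil at 22 °C with 8 hours of light and 16 hours of dark, without further treatment. The study's methods instead describe long days and a slightly greater age, which was not settled here, and the hour of harvest is not given in the sources used here. RNA was profiled by QuantSeq, a 3′ method in which a polyadenylated transcript yields 1 fragment close to its end. The values below are normalized reads, counts that the authors scaled between libraries. They are not divided by gene length, because a transcript gives 1 fragment whatever its length.

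Leaf starch is made in the chloroplast by day and broken down there at night. PGM1, the plastidial phosphoglucomutase, makes glucose 1-phosphate, which ADP-glucose pyrophosphorylase (small subunit ADG1, large subunits APL1 to APL4) turns into the building block ADP-glucose, and starch synthases such as GBSS1 add it to the granule. At night SEX1, a glucan water dikinase, phosphorylates the granule surface, beta-amylases such as BAM3 release maltose, DPE1 recycles short chains in the plastid, and DPE2 metabolizes maltose in the cytosol. BAM5 is a beta-amylase outside the plastid, known from the phloem and as a gene induced by sugars, and it is not required for the breakdown of leaf starch.

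The values were checked on the mutated gene first. FER had 265, 266 and 286 normalized reads in WT and 5.95, 6.63 and 10.3 in *fer*, a log2 fold change of -5.02 ± 0.22 (SE), where fold changes here and below are differences of log2(value + 1). The columns of the table name the genotype but not the replicate, so libraries are called WT column 1 to 3 and *fer* column 1 to 3, and equal numbers do not pair them. Totals were 4523902 to 4526129 normalized reads in all 6 libraries. Among all genes, 2083 were called higher and 938 lower in *fer* at an adjusted p under 0.05 in limma (Benjamini-Hochberg over all genes), and the median log2 fold change was 0.10. Median of ratios scaling, which moved that median to 0.0031, called 1510 higher and 1460 lower, and quantile normalization, which moved it to -0.04, called 1353 higher and 1450 lower. Leaf mesophyll markers were abundant in both genotypes, and 4 of 5 were called lower in *fer*, against 4.52% of all genes. Their summed levels were 135386 to 138557 normalized reads in WT and 103592 to 112360 in *fer*. The largest of these changes were those of GAPA1, RCA and RBCS1A, at log2 fold changes of -0.58, -0.49 and -0.31. Quantile normalization gives the highest gene of every library the same value, and RBCS1A had the highest mean of all genes in WT. Its log2 fold change of 0 in that setting is therefore not informative. Under median of ratios scaling RBCS1A was at -0.41 (adjusted p = 0.00077, limma). Without the trend of variance on mean GAPA1, RCA and RBCS1A missed the threshold, at adjusted p-values of 0.073, 0.093 and 0.19 in limma. In leaf tissue fewer cells of a type and less RNA per cell cannot be told apart. Of 5 root markers, 4 were analysed, and their summed levels stayed at 4.03 to 16.4 normalized reads.

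Of the 10 genes, 1 was called. BAM5 was increased 2.44-fold in *fer* (95% interval 1.98 to 3.00), whereas none of the 5 synthesis genes and none of the other 4 breakdown genes passed the threshold. That is 1 gene of 10, against 14.6% of all genes called in either direction, 10.0% called higher and 4.52% called lower in limma. The count lower in *fer* was 0 of 10 in limma, with 0 at an unadjusted p under 0.05, while 2 of the 10, BAM5 and APL3, were higher with an unadjusted p under 0.05, against 27.1% of all genes in either direction. The median log2 fold change of the 10 genes was 0.14, beside 0.10 for all genes, and it was 0.04 beside 0.0031 under median of ratios scaling. The genotypes did not overlap for 2 of the 10, BAM5 and APL1, against 31.3% of all genes.

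BAM5 (AT4G15210, chromosome 4, 8666334 to 8669526, minus strand, in TAIR10.1, with up to 7 exons) was the gene called, so the sequence just before its annotated start is shown. The 250 bases before the start lie at chr4:8669527-8669776 and are read here on the minus strand, 5′ to 3′, from the RefSeq assembly TAIR10.1. Capitals would mark matches to 4 motifs searched on both strands, and there were none in this window.
BAM5 promoter: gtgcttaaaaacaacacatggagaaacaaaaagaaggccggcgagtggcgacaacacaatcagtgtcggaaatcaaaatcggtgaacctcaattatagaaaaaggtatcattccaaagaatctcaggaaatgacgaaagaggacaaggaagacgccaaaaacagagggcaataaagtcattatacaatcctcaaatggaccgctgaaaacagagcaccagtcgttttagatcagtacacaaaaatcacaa

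The motifs were the evening element AAAATATCT, which is read by clock factors, the G-box CACGTG, the abscisic acid response element core ACGTGNC and the W-box core TTGACC of WRKY factors. The G-box and the abscisic acid element share the letters ACGTG and can overlap. Each was found in 1 of the 10 promoters, namely the evening element in PGM1, the G-box in DPE1, where it occurred at 2 places, the abscisic acid element in APL3 and the W-box core in APL1. Among 19933 promoters of the same length, 2.5% held the evening element, 7.45% the G-box, 9.61% the abscisic acid element and 12.1% the W-box core. A match is a description of the letters and not evidence that a factor binds there.

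BAM5 had 1445, 849 and 824 normalized reads in WT columns 1, 2 and 3, and 2459, 2451 and 2438 in *fer* columns 1, 2 and 3. The *fer* libraries were nearly level, at 2449 ± 10.7 (mean ± SD, n = 3), while WT was uneven, at 1039 ± 351, with WT column 1 well above the other WT libraries. Whether the spread differs between the genotypes was not tested. The lowest *fer* library was still above the highest WT library. The log2 fold change was 1.29 ± 0.14 (SE; 95% interval 0.99 to 1.58), with an adjusted p of 2.5e-06 in limma. Without WT column 1 it was 1.55, and in limma without the trend of variance on mean the adjusted p rose to 0.041. An exact permutation test on the 6 values gave p = 0.1, two-sided, the smallest value that 3 against 3 libraries allow. By size of increase BAM5 ranked 1067 of 20754 genes.

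**Figure D1:**
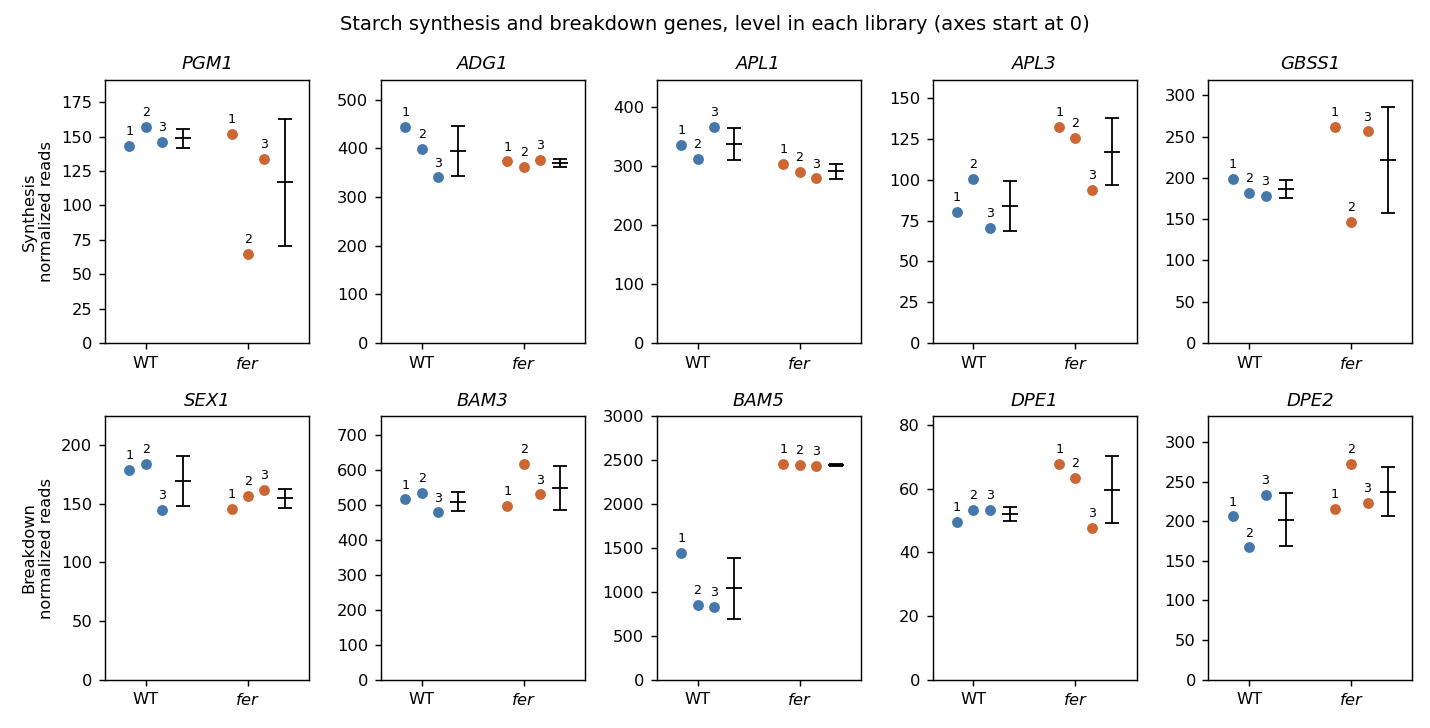
Normalized reads (y axis, from 0) of the 10 starch genes in each library, with synthesis genes in the upper row and breakdown genes in the lower row. Points are libraries, numbered by their column, and the black marks beside them give the mean and SD of the 3 libraries of a genotype. For BAM5 the *fer* libraries lie at 2438 to 2459 and the WT libraries at 824 to 1445, while in 8 of the other 9 genes the genotypes overlap.

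The order of levels among the 10 genes was similar in both genotypes. BAM5 was the highest in WT, at 1039 normalized reads, followed by BAM3 at 509, ADG1 at 394 and APL1 at 338. ADG1 and APL1 overlapped in their WT libraries, as did DPE2, GBSS1 and SEX1, the next 3 in the order. DPE1 was the lowest gene in both genotypes. The spread within a genotype also differed among genes. The coefficient of variation in WT ranged from 4.13% for DPE1 to 33.8% for BAM5, and in *fer* from 0.44% for BAM5 to 39.4% for PGM1. These spreads describe few libraries and were not tested.

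The synthesis genes were followed from the first step onwards. PGM1 (AT5G51820, chromosome 5, 21063298 to 21068327, minus strand) had 144, 157 and 146 normalized reads in WT and 152, 64.7 and 134 in *fer*. *fer* column 2 stood far below the other *fer* libraries, which lay near the WT range. The log2 fold change of PGM1 was -0.44 ± 0.22 (SE; 95% interval -0.89 to 0.02), and was not called (adjusted p = 0.21, limma). Leaving out *fer* column 2 brought it to -0.06.

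ADP-glucose pyrophosphorylase catalyses the committed step of starch synthesis, as a complex of small and large subunits. The small subunit gene ADG1 (AT5G48300, chromosome 5, 19570238 to 19572804, plus strand) had 444, 398 and 340.2 normalized reads in WT and 373, 362 and 377 in *fer*. Its *fer* libraries fell inside the WT range, with a log2 fold change of -0.08 ± 0.11 (95% interval -0.30 to 0.14). APL1 (AT5G19220, chromosome 5, 6463824 to 6466831, minus strand), which encodes the main large subunit of leaves, had 337, 312 and 366 normalized reads in WT and 304, 289.6 and 279 in *fer*. Every *fer* library was below every WT library, but the difference was small, with a log2 fold change of -0.21 ± 0.10 (95% interval -0.43 to 0.0015; adjusted p = 0.19, limma). Under median of ratios scaling APL1 passed the threshold (log2 fold change -0.32, adjusted p = 0.046, limma).

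APL3 (AT4G39210, chromosome 4, 18259547 to 18263468, plus strand), a large subunit gene known mainly from sink tissues and as induced by sugars, had 80.4, 100.6 and 70.4 normalized reads in WT and 132, 126 and 93.7 in *fer*. WT column 2 was above *fer* column 3, so that the genotypes overlapped. The log2 fold change of APL3 was 0.48 ± 0.17 (95% interval 0.12 to 0.84), and missed the threshold (unadjusted p = 0.013, adjusted p = 0.073, limma). Among the 6 fits that left out a library, APL3 passed in the one without *fer* column 3 (log2 fold change 0.63, adjusted p = 0.047, limma). GBSS1 (AT1G32900, chromosome 1, 11920390 to 11923866, minus strand), which makes amylose, had 199, 182 and 178 normalized reads in WT and 261, 147 and 256 in *fer*. As for PGM1, *fer* column 2 was the lowest of the 6 libraries. The log2 fold change of GBSS1 was 0.20 ± 0.17 (95% interval -0.15 to 0.56), and without *fer* column 2 GBSS1 was called (log2 fold change 0.47, adjusted p = 0.014, limma).

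The large subunit genes of ADP-glucose pyrophosphorylase encode related proteins. In the coding sequences annotated in RefSeq, APL1 and APL3 are 58.8% identical at the amino acid level and APL3 and APL4 84.6%, while the small subunit ADG1 is 53.0% identical to APL1. Of the reads of the 4 large subunit genes, APL1 held 72.9%, 70.0% and 78.4% in WT and 61.8%, 60.8% and 66.5% in *fer*. The share from APL3 was 17.4%, 22.6% and 15.1% in WT and 26.9%, 26.4% and 22.3% in *fer*. The APL1 shares of the genotypes did not overlap and those of APL3 did. These shares describe the libraries and were not tested.

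The breakdown genes other than BAM5 showed no change that passed the threshold. SEX1 (AT1G10760, chromosome 1, 3580830 to 3590928, minus strand) had 179, 184 and 145 normalized reads in WT and 146, 156 and 162 in *fer*, all *fer* libraries lying inside the WT range. Its log2 fold change was -0.12 ± 0.13 (95% interval -0.40 to 0.15). BAM3 (AT4G17090, chromosome 4, 9604962 to 9607402, minus strand), the main beta-amylase of leaf starch breakdown at night, had 516, 534 and 478 normalized reads in WT and 496, 617 and 529.7 in *fer*. The genotypes overlapped, and the log2 fold change of BAM3 was 0.10 ± 0.10 (95% interval -0.11 to 0.31), which median of ratios scaling turned to -0.0028.

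Both disproportionating enzymes, which move glucose units between glucans, gave overlapping values. DPE1 (AT5G64860, chromosome 5, 25925173 to 25928879, minus strand) had 49.6, 53.3 and 53.3 normalized reads in WT and 67.7, 63.4 and 47.8 in *fer*. The *fer* libraries spread to both sides of WT, with a log2 fold change of 0.18 ± 0.20 (95% interval -0.24 to 0.59). DPE2 (AT2G40840, chromosome 2, 17044932 to 17051062, plus strand) had 206, 167 and 234 normalized reads in WT and 216, 273 and 224 in *fer*. *fer* column 2 was the highest library for DPE2 and also for BAM3. The log2 fold change of DPE2 was 0.24 ± 0.13 (95% interval -0.05 to 0.52), with an adjusted p of 0.28 in limma. For the 9 genes not called, the single 95% intervals on the authors' scaling reached from -0.89 to 0.84 on the log2 scale. They are not a joint limit on the possible changes. PGM1, at the lower end, moved from -0.44 to -0.54 under median of ratios scaling and to -0.55 under quantile normalization.

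Summed over the 5 synthesis genes, WT had 1203, 1149.8 and 1101 normalized reads in columns 1, 2 and 3 and *fer* had 1223, 989 and 1139.7. These sums overlapped. Over the 5 breakdown genes the sums were 2395, 1788 and 1734 in WT and 3384, 3560.3 and 3401 in *fer*, and without BAM5 they were 950.3, 939 and 910.2 in WT and 925, 1109.5 and 963 in *fer*. The breakdown sums were apart with BAM5 and overlapped without it.

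The other genes of the pathway were taken from a list of 17 for synthesis and 21 for breakdown, all in the table. Of these 38 genes, 4 or 10.5% were called, against 14.6% of all genes, and all 4 were higher in *fer*, namely GPT2 and SS3 for synthesis and BAM1 and AMY1 for breakdown. On the authors' scaling 0 were called lower in limma, against 4.52% of all genes. At an unadjusted p under 0.05, 4 of the 38 were lower in limma, against 1832 of all 20754 genes. Under median of ratios scaling and under quantile normalization, SS1, ISA1, LSF2 and PHS2, which are named after their values were seen, passed as lower in *fer*. Over all 20754 genes, 1460 and 1450 passed as lower in these settings. Over all 48 starch genes, including the 10 above, the median log2 fold change was 0.02 (-0.08 under median of ratios scaling and -0.11 under quantile normalization), and 5 genes or 10.4% were called, all higher, against 10.0% of all genes called higher. The called shares of 10.5% and 10.4% on the authors' scaling are near or below those over all genes.

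**Figure D2:**
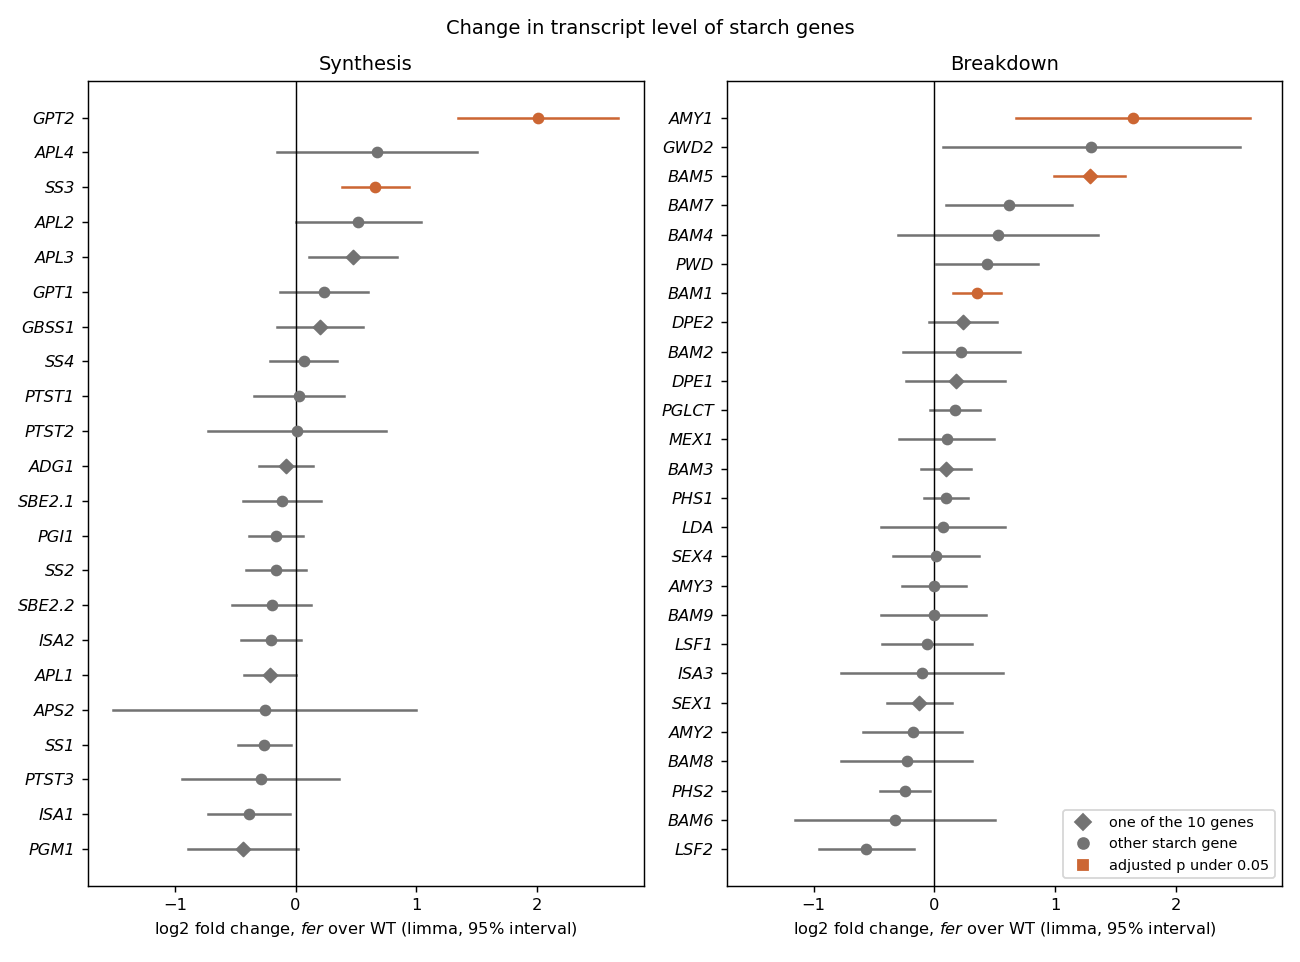
Log2 fold change of *fer* over WT (x axis, with the 95% interval from limma) for 22 genes of starch synthesis and 26 of starch breakdown. Diamonds are the 10 listed genes, circles the other starch genes, and orange marks an adjusted p under 0.05. The 5 orange genes, GPT2, SS3, AMY1, BAM5 and BAM1, all lie to the right of 0.

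GPT2 (AT1G61800) encodes a glucose 6-phosphate translocator of the plastid envelope that is known as induced by sugars and by high light. It had 18.2, 9.08 and 21.4 normalized reads in WT and 79.3, 43.3 and 78.7 in *fer*. The lowest *fer* library was above the highest WT library (log2 fold change 2.01 ± 0.32 SE, adjusted p = 0.00017, limma). Without the trend of variance on mean GPT2 was still called, at 0.044. The companion gene GPT1 was not called, at a log2 fold change of 0.23 ± 0.17.

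SS3 (AT1G11720), a soluble starch synthase that works on amylopectin, had 189.8, 169 and 160.5 normalized reads in WT and 264, 334 and 232 in *fer*. The genotypes did not overlap (log2 fold change 0.66 ± 0.13 SE, adjusted p = 0.0018, limma). Without the trend SS3 was not called, at 0.093. The other starch synthases of the list, SS1, SS2 and SS4, had log2 fold changes of -0.26, -0.16 and 0.07 and were not called, that of SS4 turning to -0.03 and -0.06 under the other scalings.

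BAM1 (AT3G23920), a plastidial beta-amylase known from guard cells and from stressed leaves, had 333, 342 and 325 normalized reads in WT and 416, 419.5 and 444 in *fer*. This was a small but even difference, with the genotypes apart (log2 fold change 0.35 ± 0.09 SE, adjusted p = 0.014, limma). BAM1 missed the threshold under median of ratios scaling, at 0.082, under quantile normalization, at 0.0525, without the trend, at 0.13, or without *fer* column 3, at 0.077. AMY1 (AT4G25000), a secreted alpha-amylase, was low, with 7.24, 6.04 and 1.75 normalized reads in WT and 14.1, 15.8 and 18.3 in *fer*. The increase (log2 fold change 1.65 ± 0.46 SE, adjusted p = 0.021, limma) was not called without the trend, at 0.089, or without any 1 of WT column 3 and the *fer* columns, at 0.059 to 0.10. The last 16 bases of AMY1 are shared with AT4G24990 on the same strand, which was itself called higher in *fer*, at an adjusted p of 0.043.

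Beta-amylases form a family of 9 genes in the table, and their makeup differed between the genotypes. BAM5 held 58.0%, 44.4% and 44.9% of all beta-amylase reads in WT and 68.6%, 65.9% and 67.4% in *fer*. The share of BAM3 was 20.7%, 27.9% and 26.0% in WT and 13.8%, 16.6% and 14.6% in *fer*. The levels of BAM3 itself overlapped between genotypes, and the family total was 1837 to 2491 normalized reads in WT and 3585 to 3721 in *fer*. Of the 9 genes BAM5 and BAM1 were called, or 22.2%, against 14.6% of all genes. BAM5 and BAM3 are 48.4% identical at the amino acid level, and BAM6, the relative closest to BAM5 among those compared, is 62.6% identical to BAM5 and had a log2 fold change of -0.33 ± 0.39 (SE), not called.

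**Figure D3:**
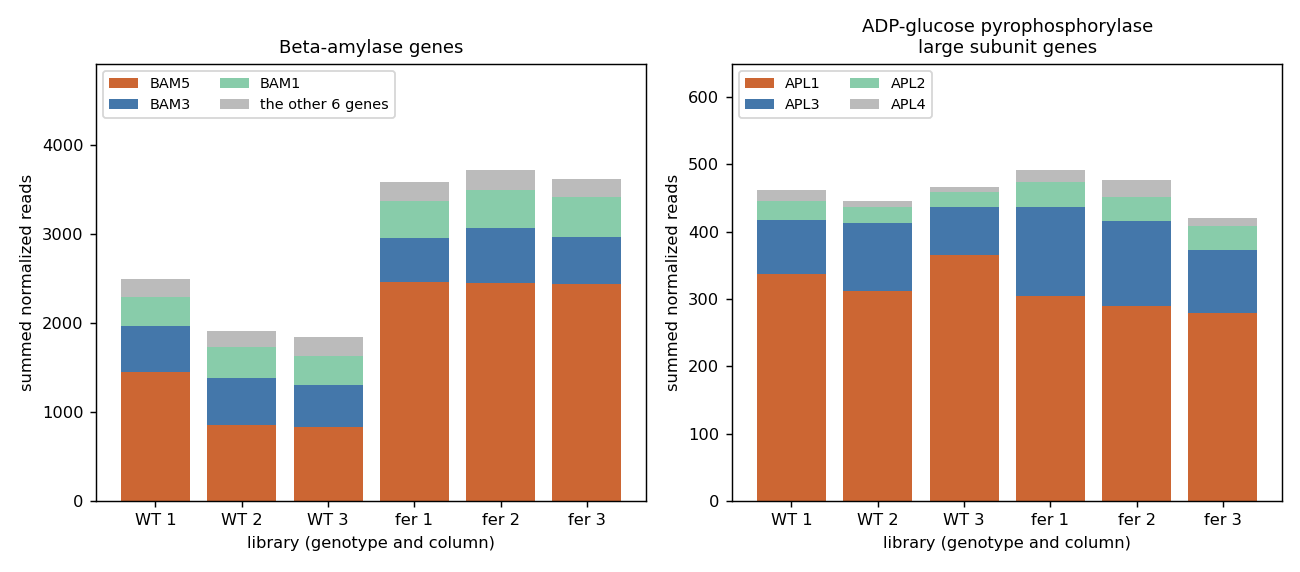
Summed normalized reads (y axis, from 0) of the beta-amylase genes (left) and of the large subunit genes of ADP-glucose pyrophosphorylase (right) in each library, named by genotype and column. Beta-amylase totals are 3585 to 3721 in *fer* and 1837 to 2491 in WT, and BAM5 is the largest part in each library.

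BAM5 alone made up 17.8%, 11.3% and 11.1% of the reads of all 48 starch genes in WT and 26.6%, 26.3% and 26.5% in *fer*. The remaining 47 genes came to a sum of 6655 ± 32.5 normalized reads for WT against 6805 ± 63.8 for *fer* (SD, n = 3), a ratio of 1.02. This holds on the authors' scaling only. Median of ratios scaling divides by 0.977 to 0.984 in WT and by 1.04 to 1.06 in *fer*. The direction of so small a difference therefore depends on the scaling.

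Because BAM5 is known from the phloem, phloem markers were set beside it. Of 7 markers, 1 was called higher in *fer* and 2 lower, against 10.0% and 4.52% of all genes. Summed levels were 1699 to 1825 normalized reads in WT and 1711 to 1776 in *fer*, which overlapped on the authors' scaling. Median of ratios scaling lowers *fer* levels relative to WT, and these sums were not compared on it. NAKR1 rose, at a log2 fold change of 0.84, SEOR1 and SEOR2 fell, at -0.48 and -0.51, and SUC2, the sucrose transporter of companion cells, had -0.03 ± 0.09 (SE). Without the trend SEOR1 and SEOR2 were not called, at adjusted p-values of 0.13 and 0.14 in limma. Neither was called without WT column 3 or without *fer* column 3, nor was SEOR2 without *fer* column 1, at 0.053 to 0.10. None of the 7 was at 0 in any library. The part of phloem content in the BAM5 result was not tested. Guard cell markers, relevant to BAM1, had summed levels of 836 to 891 normalized reads in WT and 722 to 776 in *fer*. Of these markers 1 of 5 was called, against 14.6% of all genes. This was GC1, with a log2 fold change of -0.36, which without the trend was not called, at 0.14. The part of guard cells in the BAM1 result was not tested.

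Transcripts of several starch breakdown genes are known to cycle over the day, so 11 clock genes were examined as well. LHY was called, with 512, 514 and 657 normalized reads in WT and 714, 667 and 760.2 in *fer* (log2 fold change 0.35 ± 0.10 SE, adjusted p = 0.024, limma). Median of ratios scaling left LHY uncalled, at 0.12, as did 4 of the 6 fits without 1 library. The other 10 clock genes were not called, so that 1 of 11 or 9.09% was called, against 14.6% of all genes. The median log2 fold change of the 11 was 0.11, beside 0.10 for all genes. The part of harvest time in any starch gene was not tested.

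The uniqueness of the gene ends was examined on TAIR10.1. None of the 50-base windows in the last 500 bases of the 48 starch genes occurs elsewhere in the genome as an exact match. Matches with mismatches, which the authors' alignment allowed, were not searched, so reads shared between similar genes were not tested. Another gene covers the 3′ end of 2 of the 10 genes. The last 43 bases of APL1 are shared with AT5G19210 and the last 13 bases of BAM3 with AT4G17085, both on the opposite strand. AT5G19221 also overlaps APL1, by 2386 bases, and AT4G06665 overlaps BAM3, by 518 bases, but neither covers the 3′ end. Whether counting used strand is not stated. Both neighbours at the 3′ ends were low, AT5G19210 with mean levels of 18.8 (WT) and 12.1 (*fer*) normalized reads and AT4G17085 with 27.6 and 33.8. No other annotated gene overlaps BAM5.

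**Figure D4:**
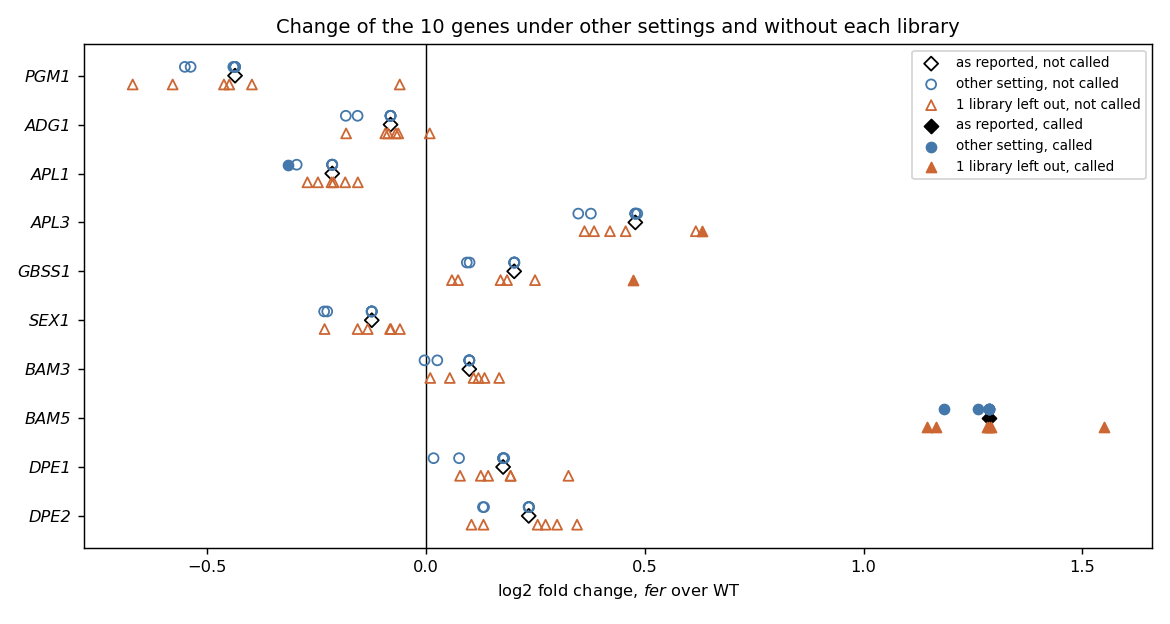
Log2 fold change of *fer* over WT (x axis) for the 10 genes as reported (diamonds), under 6 other settings (circles) and with each of the 6 libraries left out (triangles), where filled symbols passed the threshold. BAM5 stays between 1.14 and 1.55 and is filled throughout, and of the other genes APL1, APL3 and GBSS1 are each filled once.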

How the data were processed

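The authors sequenced each library in 2 runs, merged the reads, aligned them to TAIR10 with STAR and counted them per gene with htseq-count. Per the labels edgeR was also used, and versions are not given in the sources used here. The deposited signal is reads normalized with TMM (trimmed mean of M-values) to a common library size. A further deposited column, the authors' log2 fold change, was not used. At the best step, 100% of the low values of WT column 2 lay within 0.05 of a whole number. In the other 5 libraries 16.9% to 79.6% did, so that their reads were not recovered and no count test was run. The study's methods give an average read count per sample, but the depth of each of these 5 libraries is not known here. Columns carry the genotype but no replicate number.

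Values were tested as log2(value + 1), which understates changes of low genes, with limma 3.58.1 in R 4.3.3 (trend of variance on mean, two-sided) over all 20754 genes, and called at an adjusted p under 0.05. The fit was also run on simulated libraries with independent noise, with large changes placed only in genes that were not low. That run does not cover small changes, low genes or differences in scaling. All 10 members, called genes of the other starch lists, and up to 3 called genes of each marker list were named. GPT1, SS1, SS2, SS4, BAM6, SUC2, TPS8 and DIN10 were named after their values were seen. Members and lists were chosen with earlier results of these data known. Positions and sequences are from RefSeq TAIR10.1, and protein identities were computed with Biopython 1.88 over aligned positions of the longest coding sequence. Alternatives were a pseudocount of 0.1, a mean of at least 5, 2 other scalings, no trend, a threshold of 0.01 and leaving out each library.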

Additional observations from a re-analysis of the deposited data

How the results depend on the processing

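No paired analysis was possible because replicate numbers are missing from the columns. An edgeR fit was planned in case whole reads could be recovered. It was left out because they were not recovered in all libraries. BAM5 was called under all 6 other settings, at log2 fold changes of 1.18 to 1.29, and in all 6 fits without 1 library, at 1.14 to 1.55. Members called higher numbered 1, or 1 to 2 without 1 library, where GBSS1 or APL3 joined. Members called lower numbered 0, also without any 1 library, and 1 (APL1) under median of ratios scaling.

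The other starch genes called higher numbered 4, but 1 (GPT2) without the trend, 2 (GPT2 and SS3) at an adjusted p under 0.01, and 2 to 4 without 1 library. Those called lower numbered 0, but 1 (LSF2) with a mean of at least 5, 4 (SS1, ISA1, LSF2 and PHS2) under either other scaling, and 0 to 1 without 1 library. Over all genes, 2083 were higher and 938 lower. These were 1353 and 1450 under quantile normalization, 908 and 222 without the trend, 1190 and 492 at an adjusted p under 0.01, with 1460 lower under median of ratios scaling, and 1287 to 1822 higher and 537 to 821 lower without 1 library. Both counts fell by over 1.5 times without *fer* column 3 (1287 and 620), and the lower one also without WT column 2 (537). Over the 48 starch genes and all alternatives, 548 single values kept their side of the threshold, 15 newly passed, 12 no longer passed and 0 changed direction while called. The cause was not tested. With 3 libraries of each genotype, and replicates whose separate growth the labels do not detail, p-values measure the spread between these libraries only.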

Other observations

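Of 5 genes known to be induced in darkness and by sugar shortage, 4 were called higher in *fer* and 0 lower, against 10.0% of all genes called higher. Their median was 0.85 on the log2 fold change scale, beside 0.10 for all genes, and in all 5 every *fer* library was above every WT library, as in 20.8% of all genes. The list is small, was chosen with earlier results of these data known, and was not tested as a group. ASN1 (AT3G47340), an asparagine synthetase, had 70.3, 61.4 and 68.3 normalized reads in WT and 306, 364 and 304 in *fer*, a log2 fold change of 2.26 ± 0.13 (SE). BGLU30, SEN1 and TPS8 had log2 fold changes of 2.14, 0.85 and 0.81, and without the trend BGLU30 and TPS8 were not called, at adjusted p-values of 0.11 and 0.076 in limma. DIN10 was not called, at 0.40 ± 0.17. BAM5 and GPT2, which are known as induced by sugars, were called higher in the same comparison as these 4 genes known for sugar shortage. APL3, also known as induced by sugars, was not called, at a log2 fold change of 0.48 (adjusted p = 0.073, limma). No sugar or starch was measured in these files.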
